A study of Sus scrofa with 5 samples.

Results

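The transcripts described here moved in a single direction across 3 stages of molar development in the miniature pig. A transcript was a member when its log2(FPKM + 1) rose by 1 or more from E50 to E60 and again from E60 to E70, or fell by 1 or more in both steps. FPKM scales the fragments of a transcript to its length and to the number of mapped fragments, and a change of 1 on this scale is close to 2-fold for an abundant transcript and understates the change of a scarce one. Of 45614 transcripts at 18696 loci, 789 rose and 388 fell in both steps, 1177 in all. The members were chosen by the same FPKM values that are given below, so these values are a description and none of them was tested.

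RNA was pooled from the additional molar germs of wild type miniature pig embryos, taken with the attached dental lamina from the mandible at embryonic days 50, 60 and 70 (E50, E60 and E70) and, within a stage, from a single litter. The labels list 1 sample for each of E50 and E60 and 3 samples for E70, but the table holds 1 value per stage, so the spread between litters is unknown and each difference below compares pools and not replicated stages. The germs hold epithelium, mesenchyme and dental lamina together, so more cells of a type and more RNA per cell cannot be told apart. The table pairs no transcript with a gene symbol, so the members are given by transcript identifier and by their position on the scaffolds of the Wuzhishan pig genome (WZSP), and neither markers of the germ nor the genes behind most members were looked up here.

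Teeth arise from an epithelial ribbon in the jaw, the dental lamina, in exchange with the mesenchyme below it. The lamina keeps growing toward the back of the jaw, and the molars of the adult set start there in turn, where no milk tooth stood before. The epithelium of each germ folds over a condensed mesenchyme in the cap stage and takes the shape of the future crown in the bell stage, after which cells on either side of the boundary become ameloblasts and odontoblasts. Between E50 and E70 the first of these molars passes from cap to late bell stage and the next one is initiated. A gene can change through such a series in its total output, or in which of its alternative transcripts is made, and an assembled locus with several transcripts can show either.

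Movement in a single direction was uncommon in these data. From E50 to E60, 25550 transcripts (56.0%) rose by 1 or more and 6433 (14.1%) fell, and from E60 to E70 6520 (14.3%) rose and 25597 (56.1%) fell. Most transcripts turned at E60, with 23411 (51.3%) going up before down and 4742 (10.4%) down before up. The rising members were 1.73% of all transcripts and the falling members 0.851%, and together they made up 4.01% of the 29330 transcripts that changed by 1 or more in both steps. Both steps share the E60 value, so they are not independent of each other.

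**Figure D1:**
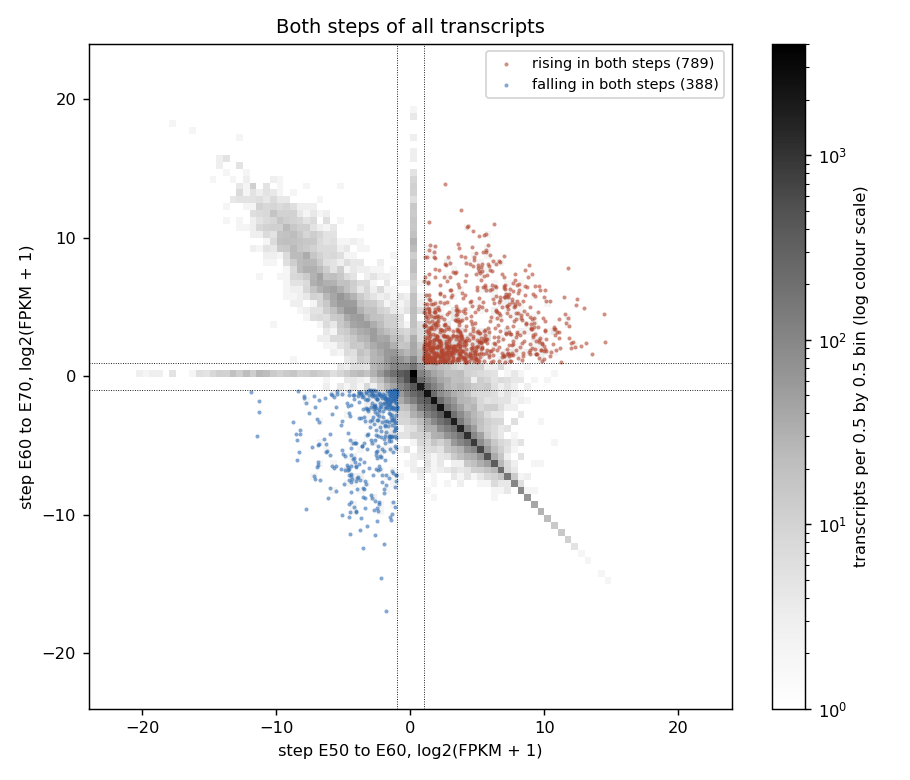
The change from E50 to E60 (x axis) is plotted against the change from E60 to E70 (y axis) on the log2(FPKM + 1) scale, with grey bins for all transcripts on a log colour scale, points for members and dotted lines at 1 and -1. The 789 rising members fill the upper right corner and the 388 falling members the lower left, away from the dense diagonal of transcripts that turned at E60.

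The scale of the stages differed. All FPKM values added up to 44747113 for E50, 3117182 for E60 and 88974346 for E70, and 20727, 37539 and 19392 transcripts were above 0, respectively. Bringing the stages to an equal median of the transcripts never listed at 0 lowered the first step by 1.87 and raised the second by 2.23 on the log2 scale, whereas bringing them to the same sum without the 10 highest transcripts raised the first by 3.24 and lowered the second by 3.62. Membership moved with these choices. Of the 789 rising members, 605 kept a rise of 1 or more in both steps with equal medians, 711 with equal 75th percentiles, 373 after quantile normalization and 222 with equal sums. Of the 388 falling members, 254, 344, 167 and 98 kept theirs, respectively. In all 4 of these scalings, 165 rising members (20.9%) and 68 falling members (17.5%) were kept, a set formed after seeing the data and called the members kept in all scalings below. Equal medians, 75th percentiles and sums multiply a stage by a constant, so a step from or to a listed 0 keeps its direction. Listed at 0 were 163 of the kept rising members at E50 and 66 of the kept falling ones at E70. Being kept is thus partly set by a listed 0. Of the kept members, 95 rising (57.6%) and 39 falling ones (57.4%) carried Cuffdiff's mark of a locus too complex or too thinly covered to test, against 25.7% and 21.4% of all rising and falling members, and in the same 95 rising ones the table's rows disagree for a stage. The number of fragments behind a single value is unknown, because the table holds no counts. The paper lists similar numbers of clean reads for the stages. It gives lower shares of reads mapped to WZSP at E50 and E70 than at E60.

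Rising transcripts went from nothing listed at E50 to a high level at E70. Of the 789, 618 (78.3%) were listed at 0 at E50, against 54.6% of all transcripts and 66.1% of those that went up and then down. From a median FPKM of 0 at E50 they reached 19.1 at E60 (quartiles 5.12 and 128) and 206.8 by E70 (quartiles 39.1 and 3261). The first step was the larger one in 494 of them (62.6%), against 24.7% of all transcripts. It was larger in 18.2% of those that went up and then down and in 35.2% of those that went down and then up. The medians of the rising members were 3.75 for the first step and 2.73 for the second. An exact 0 in such a table can be a failed estimate, so a rise from 0 is given without a fold.

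Falling transcripts were close to the mirror image. Of the 388, 300 (77.3%) were listed at 0 at E70, against 57.5% of all transcripts and 69.1% of those that went up and then down. From a median FPKM of 104 (quartiles 19.3 and 1666) they went to 13.9 (quartiles 2.70 and 89.6) and then to 0. Here the second step was more often the larger one, with medians of -2.51 and -3.15. The first was larger in 148 (38.1%), close to the 35.2% of those that went down and then up, against 24.7% of all transcripts. In both directions the larger step in most members was thus the one next to the stage where members were listed at 0. The rule sets that stage, since a rising member can be 0 only at E50 and a falling one only at E70. The order of the steps also depends on the scaling, as equal medians shift the first step by -1.87 and the second by 2.23.

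**Figure D2:**
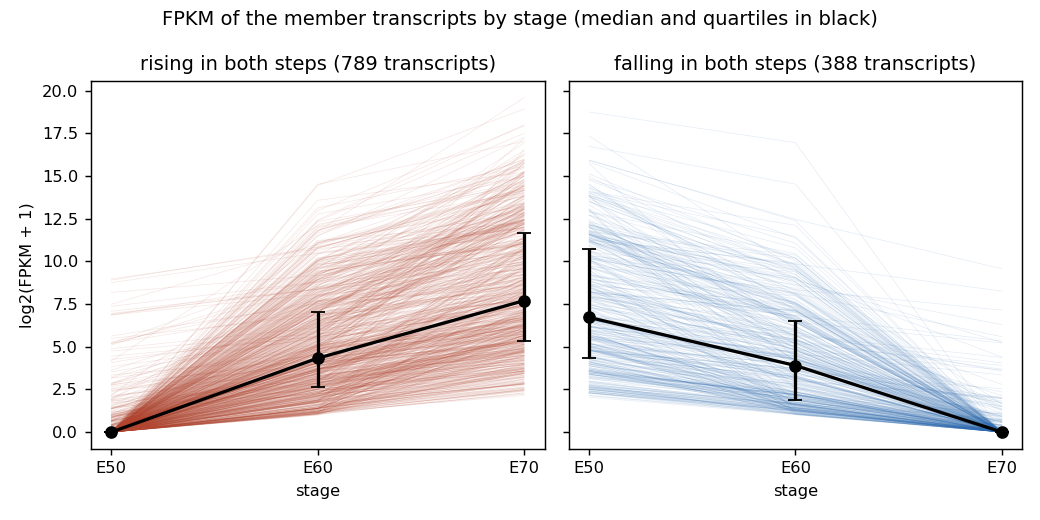
Each thin line is a member transcript, drawn as log2(FPKM + 1) (y axis) at E50, E60 and E70 (x axis), with the median and quartiles over members in black. The median of the 789 rising members starts at 0 and that of the 388 falling members ends at 0.

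Part of the rising members rest on rows that disagree. In 193 of the 789 (24.5%) the comparison of E60 with E70 lists both stages above 0, while the rows that hold E50 list 0 for every stage, and the larger value was used. Rows of a stage differed in 1.98% of all transcripts and in 2.72% of those that went down and then up. All 193 were therefore taken as 0 at E50, where no row gives another value. The rows that list this 0 also list 0 at E60 and E70, where the other row does not. The start of their first step is therefore uncertain. They were the more abundant ones, with a median of 129 FPKM at E60 and 5672 at E70, against 11.7 and 90.5 in the other 596 rising members. No falling member had such rows, which the rule excludes, since a falling member must be above 0 at E50. Without them the rising members numbered 596, of which 425 (71.3%) were listed at 0 at E50. The mark of a locus too complex or too thinly covered to test was carried in all rows by 203 rising (25.7%) and 83 falling members (21.4%), against 4.23% of all transcripts and 5.06% of those that went down and then up.

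Members above 0 at all 3 stages give a change that no listed 0 sets. There were 171 rising members of this kind, 1.51% of the 11301 transcripts above 0 at all stages, with medians of 0.970 FPKM for E50, 15.1 for E60 and 88.0 for E70, and a median rise of 73.5-fold over both steps (quartiles 22.8 and 227). There were 88 falling ones, 0.779% of the 11301, with medians of 47.2, 10.4 and 0.927 and a median fall of 47.9-fold (quartiles 16.2 and 128). Only 83 rising and 43 falling members reached 1 FPKM at every stage. Of the members kept in all scalings, 2 of the 165 rising and 2 of the 68 falling ones were above 0 at all stages, and the rest were listed at 0 at E50 or E70.

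Among these, the rising transcript with the largest smaller step was TCONS_00359102 (scaffold214, 3328627 to 3342960). It went from 0.513 FPKM at E50 to 62.8 and 2676, with steps of 5.40 and 5.39. TCONS_00598736 (scaffold332, 15700877 to 15715272) went from 0.555 to 34.0 and 1424, with steps of 4.49 and 5.35. These were the 2 rising members above 0 at every stage that were kept in all scalings. In both, the sum of all transcripts at the locus went down before it went up, from 35571 to 108 and 10704 FPKM at the locus of TCONS_00359102 and from 31024 to 110 and 23215 at that of TCONS_00598736. The other transcripts thus held most of each locus at E50 and at E70.

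A locus at which the climb was shared lay on scaffold400, from 7321826 to 7447820. TCONS_00696955 there measured 7.99, 97.8 and 1594 FPKM at E50, E60 and E70, and TCONS_00695240 measured 0.579, 71.9 and 698. The locus of 4 transcripts went from 8.56 to 219 and 2349 FPKM, so the locus and both transcripts moved alike. TCONS_00912908 (scaffold584, 495966 to 503499) also rose with its locus, from 0.765 to 82.1 and 863 FPKM, while the locus went from 4.21 to 2245 and 11806. In none of these 3 transcripts was the rise of 1 or more in both steps kept in all scalings.

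Of the falling members above 0 throughout, TCONS_01018358 (scaffold696, 2265516 to 2276093) had the largest smaller step, from 4437 FPKM at E50 to 150 at E60 and 1.83 at E70, steps of -4.88 and -5.74. TCONS_00639735 (scaffold358, 724184 to 729416) fell from 11703 to 513 and 19.99, steps of -4.51 and -4.61, and its locus of 2 transcripts fell with it from 11764 to 848 and 70.2. Both were kept in all scalings. TCONS_00176246 (scaffold14, 3075486 to 3085897) fell from 62253 to 5651 and 757 FPKM and made up nearly the whole of its locus at E50, where 6 transcripts summed to 62257. It was not kept in all scalings and carried the mark of too complex or too thin coverage.

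The highest values belonged to transcripts listed at 0 at an end of the series. TCONS_00502924 (scaffold283, 3431755 to 3442312) was listed at 0 at E50 and reached 3466 FPKM at E60 and 789918 at E70, in rows that disagree. TCONS_00301386 (scaffold190, 7142763 to 7186360) came next, at 0, 22458 and 497874, also in rows that disagree. TCONS_00138818 and TCONS_00140927 lie close together on scaffold1277, the first at 3050816 to 3052333 and the other at 3057851 to 3061788. They were listed at 0 at E50 and measured 5500 and 5295 FPKM at E60 and 261493 and 186238 at E70, with rows that agree. TCONS_00794243 (scaffold457, 5340190 to 5341425) lay between these in its E70 value, at 0, 8096 and 250861, with rows that agree. Of these 5 highest rising members, TCONS_00502924, TCONS_00138818 and TCONS_00140927 were kept in all scalings, and TCONS_00301386 and TCONS_00794243 were not. Among falling transcripts, TCONS_00792146 (scaffold456, 9441 to 20489) went from 166384 to 755 and 0, was kept in all scalings, and its locus sum fell from 166386 to 773 and 0. TCONS_00590959 (scaffold325, 2682036 to 2698797) had the highest value of the falling members, 442438 at E50, then 127530 and 0, and was not kept. Both carried the mark of too complex or too thin coverage, as did TCONS_00502924 and TCONS_00301386. At 10000 FPKM or more at their highest stage were 100 rising and 32 falling members, of which 31 and 13, respectively, carried the status OK in all 3 rows. Over all transcripts 546 (1.20%) were this high, 216 of them (39.6%) with the status OK, and among those that went down and then up 5.57% were, 59.1% of them with the status OK.

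The rising members held 0.00737% of the FPKM sum of E50, 8.17% of that of E60 and 6.96% of that of E70. The falling members held 3.87%, 6.88% and 0.00184%. These shares rest on few transcripts, since the 10 highest made up 42.7% of the rising sum at E70 and 60.9% of the falling sum at E50. Without the 193 transcripts whose rows disagree, the rising members held 3.97% at E60 and 2.25% at E70.

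The threshold cut through a continuous range. The rising member closest to it, TCONS_00069629, measured 115, 443 and 888 FPKM with a smaller step of 1.0006, and the closest transcript outside, TCONS_00057614, measured 0.171, 1.34 and 4.11 with a smaller step of 0.9994. On the falling side the closest member was TCONS_00131276, at 8.13, 3.56 and 0.00197 FPKM, and the closest transcript outside was TCONS_01063763, at 6.24, 1.47 and 0.235. The smaller of the steps reached 2 in 428 rising members (54.2%) and in 177 falling members (45.6%), and 4 in 159 and 68.

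Most members shared their locus with other transcripts, which the rule did not use. The single transcript of their locus were 29 rising members (3.68%) and 29 falling members (7.47%), against 17.9% of all transcripts, 10.6% of those that went up and then down and 6.28% of those that went down and then up. Members lay at loci with a median of 4 transcripts in both directions, against 3 over all transcripts and 4 for those that turned up and then down. The locus spanned a median of 31711 bp for rising members and 20548 bp for falling members, introns included, and 31171 bp over all transcripts. At the highest stage, 93.3% of the rising and 85.6% of the falling members reached 10 FPKM, against 40.1% of all transcripts and 95.0% of those that went down and then up, and the part of this difference in level in the shares above was not tested.

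At loci of several transcripts the sum of the locus moved with the member in some cases and turned at E60 in others. Of the 760 rising members at such loci, the locus sum rose by 1 or more in both steps for 238 (31.3%), against 3.58% of all 37446 transcripts at such loci. It was higher in both steps, at any size, for 328, went down and then up for 351 (46.2%), went up and then down for 75 (9.87%) and was lower in both for 6. Over all transcripts at such loci, the sum went down and then up for 31.9% and up and then down for 55.2%. Of the 359 falling members at such loci, the sum fell by 1 or more in both steps for 115 (32.0%), against 2.12% over all. It was lower in both at any size for 171, went down and then up for 133 (37.0%), close to the 31.9% over all, went up and then down for 44 (12.3%) and was higher in both for 11. The sum holds the member itself, so these counts describe the loci and do not test them. Without transcripts whose rows disagree, 24.7% of the remaining 567 rising members had a locus sum that rose by 1 or more in both steps.

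In the median, the member's share of its locus went up or down with it. Where the locus sum was above 0, a rising member made up a median of 0% of it at E50, rising to 24.3% and then 67.3%, and 422 of the 760 (55.5%) were the highest transcript of their locus at E70, against 21.5% of all transcripts at such loci and 67.6% of those that went down and then up. A falling member made up a median of 72.7%, then 26.4% and then 0%, and 223 of the 359 (62.1%) were the highest at E50, against 22.5% of all and 69.4% of those that went down and then up. Single members could differ from the median. From E50 to E60 the share fell in 39 of 666 rising members (5.86%) and rose in 102 of 359 falling members (28.4%), and from E60 to E70 it fell in 280 of 760 rising members (36.8%) and rose in 21 of 292 falling members (7.19%). The other 2591 transcripts at the loci of rising members mostly turned at E60, with 1230 (47.5%) going up before down and 566 (21.8%) down before up, against 51.3% and 10.4% of all transcripts. At the loci of falling members the same counts were 587 (47.7%) and 227 (18.4%) of 1231. Cufflinks divides the fragments of a locus among its overlapping transcripts, so the levels of transcripts at a shared locus are not independent of each other.

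**Figure D3:**
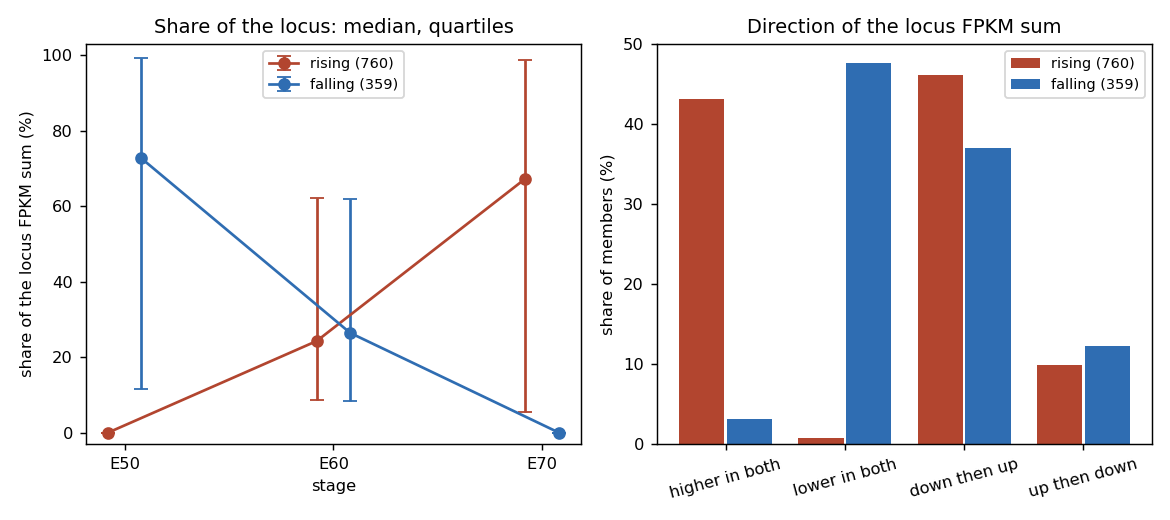
At left, the share of the locus FPKM sum (y axis, %) taken by members at loci of several transcripts is drawn by stage as median and quartiles; at right, bars give the share of the same members (y axis, %) whose locus sum moved in each direction. The median of rising members goes from 0% to 67.3% and that of falling members from 72.7% to 0%, and the locus sum of 46.2% of the rising members went down and then up, against 31.9% over all transcripts at such loci.

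Some loci held members of both directions. There were 43 of them, with 96 members. At scaffold1269, 50822 to 52555, 4 transcripts were assembled over a short interval. TCONS_00134497 fell from 4219 FPKM at E50 to 13.3 at E60 and 0 at E70, TCONS_00134643 fell from 2691 to 108 and 0, and TCONS_00134344 was listed at 0, then at 2.66 and 1383. The remaining transcript, TCONS_00134498, was listed at 30495 at E50 only. At E50 and E70 the locus thus listed entirely different transcripts, and its sum went from 37406 to 124 and 1383 FPKM. Both falling members were kept in all scalings, TCONS_00134497 with the mark of too complex or too thin coverage, and the rising one was not.

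The locus with the most rising members lay on scaffold11, 9652177 to 9692120, with 4 rising and 1 falling among 15 transcripts. TCONS_00071285, whose rows disagree, was listed at 0, 375 and 34454 FPKM, TCONS_00071281 at 0, 132 and 7039, TCONS_00069627 at 0, 494 and 1894, and TCONS_00069629 at 115, 443 and 888. The first and second of these were kept in all scalings. The others were not, and their second step turned to -1.67 and -2.53 after quantile normalization and to -1.68 and -2.61 with equal sums. The locus summed to 396042, 2805 and 125305 FPKM. At E50 most of it was held by TCONS_00069168, with 240331 FPKM (60.7%). TCONS_00069164, which turned at E60, held 68331 and 58007 FPKM at E50 and E70. At scaffold671, 1727167 to 1800399, TCONS_00998175 fell from 802 to 60.1 and 0 FPKM while TCONS_00998595 was listed at 0, 59.9 and 26174, and only the latter was kept in all scalings. Another rising member there, TCONS_00998286, was listed at 0, 30.6 and 291, with rows that agree and the status OK, and was not kept. The rows of TCONS_00998595 disagree and carry the mark of too complex or too thin coverage, as do those of TCONS_00071285, whereas the rows of TCONS_00998175 agree and have the status OK.

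The locus with the most falling members was that of TCONS_01018358 on scaffold696, where 5 of 6 transcripts fell. They measured between 2347 and 4437 FPKM at E50, between 148 and 190 at E60 and at most 1.83 at E70, so the 5 ran closely together. The sixth, TCONS_01018686, was far higher and turned, at 40786, 599 and 10732 FPKM. Of the 5, TCONS_01018358 and TCONS_01018360 were kept in all scalings. Rising members lay at 700 loci in all, 619 of them with 1 member, and falling members at 358 loci.

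Loci with a single transcript are free of the division of fragments within a locus. None of the 58 members at such loci had rows that disagree, against 1.98% of all transcripts. All 58 carried the status OK, against 24.7% of all transcripts and 92.8% of those that went down and then up. The rising ones with the largest smaller step were TCONS_00912607 (scaffold5833, 61278 to 61967), listed at 0, 23.8 and 821 FPKM, TCONS_00711027 (scaffold41, 5132400 to 5136400), listed at 0, 27.2 and 693, and TCONS_01092255 (scaffold81, 5075263 to 5079772), listed at 0, 26.8 and 403. The first and second of these were the only rising members alone at their locus that were kept in all scalings. By the change over both steps together, TCONS_00332921 (scaffold200, 2578334 to 2579330) came first, at 0, 4034 and 16534 FPKM, a total of 14.01 on the log2 scale against 9.68 for TCONS_00912607. Of the 29, 9 were above 0 at E50.

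TCONS_01148693 (scaffold93, 9725516 to 9728148) combined a single transcript with a value above 0 at every stage. It went from 17.0 FPKM to 4382 and 31797, steps of 7.93 and 2.86, and is among the transcripts that the study lists as long intergenic non-coding RNAs (lincRNAs). TCONS_00811593 (scaffold47, 1134054 to 1141879) started highest of the 29, at 134 FPKM, and went to 335 and 2724. The other climbs from a level above 0 included those of TCONS_00534175 at 7.88, 28.2 and 244 FPKM, TCONS_01102859 at 5.86, 120 and 249, and TCONS_00853354 at 1.09, 6.49 and 15.3.

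Of the 29 falling members alone at their locus, TCONS_00013549 (contig C23356898, 428 to 1343) had the largest smaller step and the largest total change, from 1961 FPKM at E50 to 21.6 at E60 and 0 at E70. TCONS_01132704 (scaffold898, 692186 to 700471) fell from 534 to 27.3 and 0, and TCONS_00414293 (scaffold24, 3609472 to 3611408) from 352 to 36.8 and 0. The first and second of these were the only ones of the 29 kept in all scalings. Above 0 at every stage were 11, among them TCONS_00490523 (scaffold2777, 634870 to 643020) at 241, 86.6 and 36.3 FPKM, TCONS_00383068 (scaffold2281, 14425 to 15543) at 187, 6.99 and 2.91, and TCONS_00804634 (scaffold461, 8139570 to 8143948) at 69.6, 11.9 and 0.936.

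**Figure D4:**
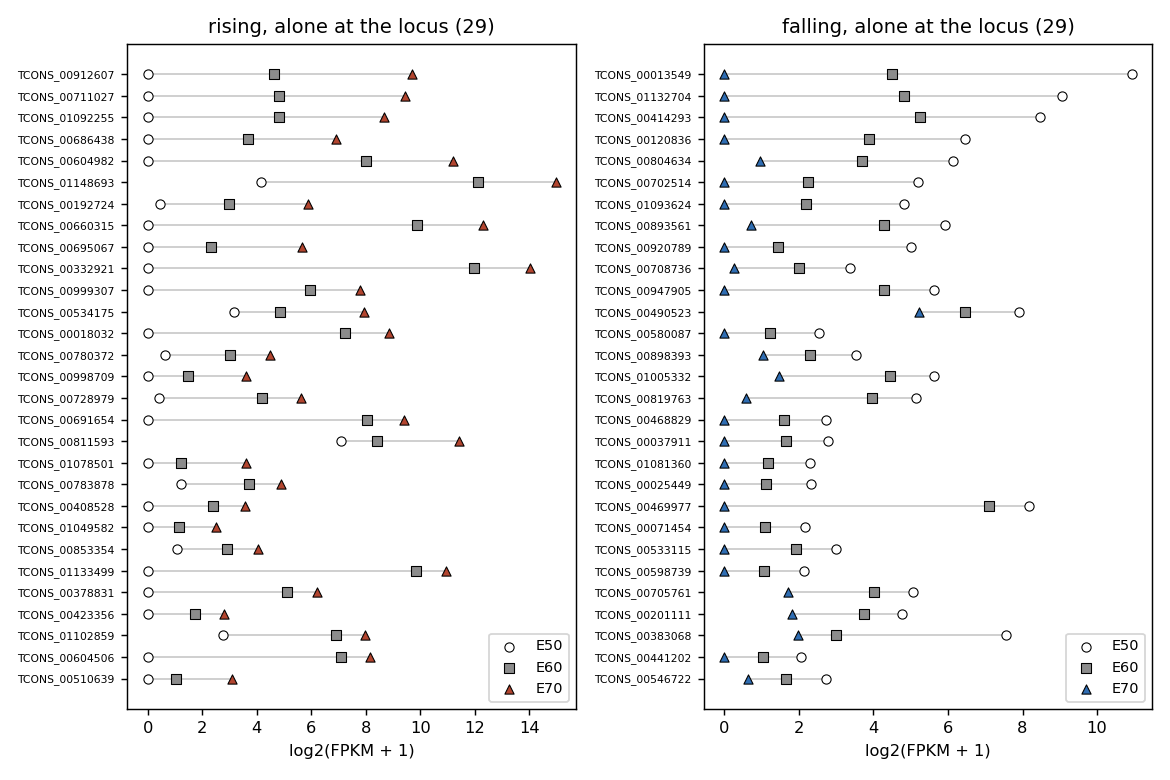
Each row is a member that is the single transcript of its locus, with its log2(FPKM + 1) (x axis) at E50 (circle), E60 (square) and E70 (triangle), ordered by the smaller of its steps. The 29 rising members span from TCONS_00912607 at 0, 23.8 and 821 FPKM down to TCONS_00510639 at 0, 1.05 and 7.50, and the 29 falling members include 11 above 0 at every stage.

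LincRNAs are long transcripts from between the protein-coding genes that code for no protein, and many are made in a single tissue or stage. The study's list of 450 lincRNAs was chosen on these samples, so their part among members is not independent evidence of a direction. It held 10 rising members (1.27%) and 14 falling members (3.61%), against 0.987% of all transcripts and 6.64% of those that went down and then up. The rising ones included TCONS_00998459 (scaffold671, 2053246 to 2117926), listed at 0, 77.6 and 7261 FPKM, and TCONS_01047549 (scaffold73, 12613914 to 12673173), listed at 0, 24.6 and 6386, both kept in all scalings. TCONS_00779923 (scaffold448, 1561787 to 1596535) measured 36.0, 134 and 29072, and TCONS_01038786 (scaffold726, 6 to 58696) 165, 444 and 21327. As listed, their second steps of 7.76 and 5.58 were larger than their first steps of 1.86 and 1.43. Neither was kept in all scalings, and equal sums shift the first step by 3.24 and the second by -3.62.

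Among the falling lincRNAs, TCONS_00342039 (scaffold21, 520645 to 532072) went from 23054 FPKM at E50 to 168 at E60 and 0 at E70. TCONS_00574105 (scaffold319, 11666215 to 11700194) went from 15026 to 4.97 and 0, and TCONS_00451073 (scaffold2543, 491608 to 505201) from 10094 to 84.1 and 0. All 3 were kept in all scalings. TCONS_00960981 (scaffold631, 121227 to 179078) was the highest, at 62881, 5368 and 0, and was not kept.

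Gene symbols were used only for 12 genes that the study pairs with a neighbouring lincRNA, and 6 members lie at loci of these pairs. They were picked after their values were seen, and none is itself a transcript of the pairs. At the locus of AP2M1 (scaffold331, 1657368 to 1666300), which encodes a subunit of the clathrin adaptor of endocytosis, TCONS_00595608 fell from 1193 FPKM at E50 to 400 at E60 and 77.3 at E70, with the mark of too complex or too thin coverage. This member was not kept in all scalings. The AP2M1 transcript that the study names, TCONS_00596741, went up and then down instead, at 20.8, 205 and 15.9 FPKM, and the locus summed to 2017, 938 and 4947.

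The other 5 lie at lincRNA loci beside a gene. Beside NFE2L2, a transcription factor of the response to oxidative stress, TCONS_00985422 (scaffold66, 7208993 to 7213190) was listed at 0, 638 and 58625 FPKM in rows that disagree and carry the mark of too complex or too thin coverage, while the lincRNA of the pair at that locus, TCONS_00978370, turned, at 3450, 3.24 and 2854. Beside ADAT1, an adenosine deaminase of tRNAs, TCONS_01008390 (scaffold685, 421658 to 447914) was listed at 0, 9.55 and 1957. Beside RBM5, an RNA-binding regulator of splicing, TCONS_01082653 (scaffold799, 596665 to 629121) was listed at 0, 68.2 and 5474. These 3 were kept in all scalings.

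Smaller was the rise beside SAMD4B, which encodes an RNA-binding protein, where TCONS_01103694 (scaffold834, 250159 to 263866) measured 2.53, 6.32 and 15.3 FPKM in a locus of 26243, 659 and 14488. Beside TLCD2, TCONS_00349729 (scaffold211, 6175886 to 6209823) fell from 813 to 2.72 and 0, and held most of the 1227 FPKM of its locus at E50. The members beside SAMD4B and TLCD2 were not kept in all scalings. At each of the 5 lincRNA loci the sum went down and then up, against the direction of its member in a step.

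Of the 1290 scaffolds and contigs with a transcript, 341 held a rising member and 219 a falling one. Rising members lay at 3.74% of all loci and falling members at 1.91%. In 32 of the 17406 neighbouring pairs of loci (0.184%) both loci held a rising member, and in 9 (0.0517%) both held a falling member. Among the closest were TCONS_00508024 and TCONS_00509977 on scaffold288, whose loci lie 26 bp apart, and TCONS_00055041 and TCONS_00054771 on scaffold1058, whose loci lie 259 bp apart. Scaffold283 held the most rising members, 16 of its 493 transcripts (3.25%), followed by scaffold332 with 13 of 728 (1.79%) and scaffold114 with 11 of 269 (4.09%), against 1.73% over the whole table.

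Taken by locus, 366 loci rose by 1 or more in both steps (1.96% of all loci) and 242 fell (1.29%). Of these, 134 of the rising and 111 of the falling loci held no member of that direction, so a locus could climb or fall through different transcripts at different stages. At scaffold132, 9451674 to 9505056, the sum of 2 transcripts fell from 380852 FPKM at E50 to 539 at E60 and 0 at E70, and at scaffold122, 5069102 to 5222717, that of 5 rose from 0.258 to 64.7 and 6328. Neither locus held a member.

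**Figure D5:**
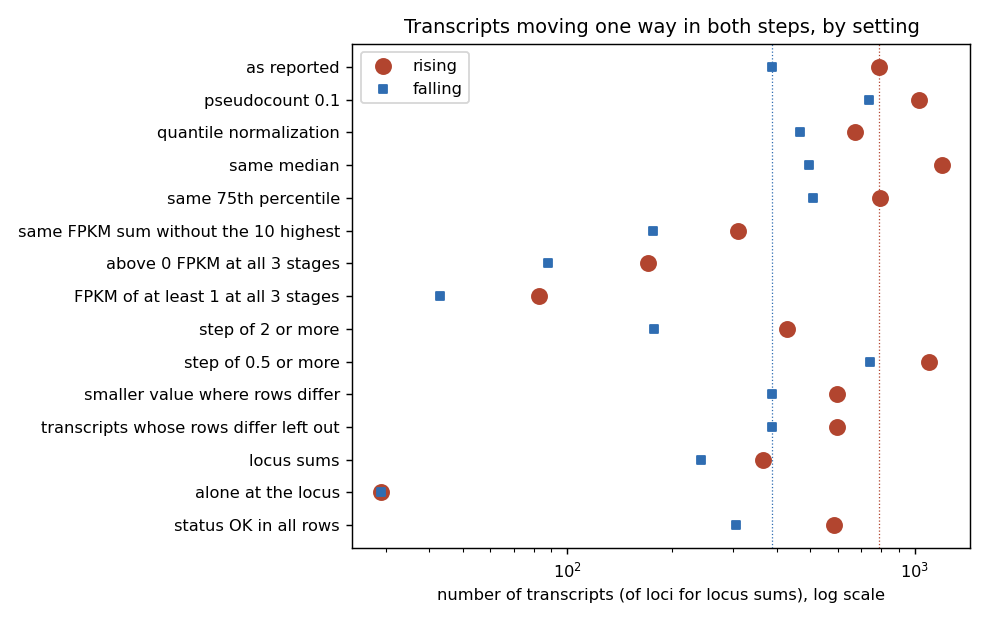
The number of transcripts (x axis, log scale; loci for the locus sums) that rise (circles) or fall (squares) in both steps is given for the reported setting and each alternative (rows), with dotted lines at 789 and 388. Counts run from 29 at loci of a single transcript, where both directions have the same number, to 1199 rising transcripts with equal medians.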

How the data were processed

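The authors sequenced pooled RNA, mapped it to WZSP with TopHat, built transcripts with Cufflinks, merged the assemblies and deposited a Cuffdiff table of FPKM values, 1 per stage, in 3 rows per transcript. Its columns of fold changes, test statistics, p-values and q-values belong to the authors' comparisons and were not used. The status column served only to mark quality. Where the rows of a stage differed (901 transcripts, 288 of them at both E60 and E70), the larger value was taken. Steps were differences of log2(FPKM + 1), with a pseudocount of 1 and a threshold of 1, and locus sums added the FPKM of all transcripts with the same locus. With 1 value per stage there is no replicate error, and no test was made. The number of fragments behind a value is unknown. The E70 value could not be assigned to 1 of the 3 labelled samples and was used as the authors' value.

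Transcripts were named by rank of the smaller step, of FPKM and of the number of members per locus, with the lincRNAs, and the members just inside and outside the threshold. The members at loci of gene pairs, the loci without a member, the closest neighbouring loci and several members alone at their locus were added after their values were seen. Members and lists were chosen with earlier results of these data known. Starts were converted to count from 1. The study's annotation of transcripts with gene symbols was not used, since it was read here only in part, where symbols stand as calendar dates or dashes. No sequence is given, because the WZSP genome was not used here. Quantile normalization, 3 scalings, another pseudocount, filters, other steps, other handling of differing rows and locus sums were tried as alternatives. The rule, quantile normalization and the scalings other than equal sums were tested on simulated data. Equal sums, which kept the fewest members, were not tested in this way, so being kept in all scalings rests in part on an untested scaling. Python 3.11.15, numpy 2.4.6, pandas 2.3.3 and matplotlib 3.10.9 were used.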

Additional observations from a re-analysis of the deposited data

How the results depend on the processing

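Rising and falling transcripts numbered 789 and 388 as reported. The rising count stayed within 1.5 times for a pseudocount of 0.1, quantile normalization, equal 75th percentiles, a step of 0.5 and both treatments of differing rows, and moved to 1199 with equal medians, 310 with equal sums without the 10 highest transcripts, 171 above 0 at all stages, 83 with FPKM of at least 1 at all stages, 428 with a step of 2, 366 by locus sums and 29 alone at the locus. The falling count stayed within 1.5 times for quantile normalization, equal medians, equal 75th percentiles and both treatments of differing rows, and moved to 737 with a pseudocount of 0.1, 176 with equal sums, 88 above 0, 43 with FPKM of at least 1, 177 with a step of 2, 741 with a step of 0.5, 242 by locus sums and 29 alone at the locus. With the status OK in all rows, chosen after seeing the data, 586 and 305 were left. Filters, the step size and locus sums change the counts by construction; the cause of the other moves was not tested. The share of members whose locus sum moved with them was 31.3% for rising and 32.0% for falling members. It was 27.5% and 25.1% with a pseudocount of 0.1, 18.2% and 21.6% with FPKM of at least 1 at all stages, and 35.4% and 38.2% with a step of 2. It was 24.8% and 24.3% with the status OK, and 24.7% for rising members without differing rows, both chosen after seeing the data. The share alone at the locus, 3.68% and 7.47%, was 6.50% and 19.9% with a pseudocount of 0.1, 5.59% for rising members with equal medians, 7.23% and 14.0% with FPKM of at least 1, and 2.34% and 3.95% with a step of 2.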
